A study of Mus musculus with 6 samples.

Results

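The 10 genes described here encode the subunits of the transcription factor NF-κB and its best-known inhibitors, and they were selected by gene symbol from the 41195 genes counted in γδ thymocytes. The subunits are *Nfkb1*, *Nfkb2*, *Rel*, *Rela* and *Relb*, the inhibitors of the IκB family are *Nfkbia*, *Nfkbib* and *Nfkbie*, and the other two are *Bcl3*, a nuclear IκB-like cofactor, and *Tnfaip3*, which encodes A20. All 10 genes were found and all 10 passed the filter on low counts, which left 13185 genes to test.

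The study asked how the transcription factor NFATc1 shapes γδ T cell development in the thymus. Poly(A) RNA was sequenced from 3 control samples and 3 *Rag1Cre-Nfatc1fl/fl* samples of γδ thymocytes selected magnetically with a TCRγ/δ isolation kit. Both groups were mice of the C57/B6 background, a few weeks old per the study's methods, and both carried *Nfatc1* alleles with loxP sites around exon 3. Controls, labelled Nfatc1-fl/fl (WT), are given without Cre, whereas the *Rag1Cre-Nfatc1fl/fl* mice expressed Cre recombinase from the *Rag1* locus. The study states that this inactivates the gene in early thymocytes that carry neither CD4 nor CD8. It also found less *Nfatc1* RNA in later thymocytes with these markers, so the deletion was not limited to γδ cells. The labels do not say whether the 3 samples of a group came from separate animals, so the p-values cover only sample-to-sample spread, and that spread may be technical.

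NF-κB is a dimer of Rel-family proteins that is held in the cytoplasm by IκB proteins until an IκB kinase marks the inhibitor for destruction. In the canonical route p50, made from *Nfkb1*, pairs with RelA or c-Rel, and in the non-canonical route p100, made from *Nfkb2*, is processed to p52, which pairs with RelB. Several of the inhibitors are themselves induced by NF-κB and so close a feedback loop. In thymocytes the pathway is known for transmitting antigen receptor, costimulatory and TNF-family receptor signals. RNA levels do not report on the degradation or nuclear entry of these proteins.

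The 6 libraries held between 20734771 and 22638531 reads assigned to genes. The 8 markers of T cells and the γδ receptor were present in all libraries, with summed levels of 3097 to 3286 CPM (TMM-scaled read counts relative to library size) in controls and 3025 to 3103 CPM in *Rag1Cre-Nfatc1fl/fl* samples. The sum hides members that went opposite ways: *Trdc*, the constant region of the δ chain, was at 194 to 206 CPM in controls and 93.3 to 127 CPM in *Rag1Cre-Nfatc1fl/fl* samples, whereas *Cd3d* was at 446 to 474 and 567 to 858 CPM, and 2 of the 8 were called lower. Reads over the whole *Nfatc1* gene numbered 4581, 4736 and 4612 in controls and 7987, 9603 and 5872 in *Rag1Cre-Nfatc1fl/fl* samples, and since these counts are not resolved by exon they do not check the deletion of exon 3. *Rag1Cre-Nfatc1fl/fl* replicate 3 stood apart from its group: its ratio to replicates 1 and 2 had a median log2 of 0.24 over the shortest of 4 exon-length classes of the tested genes and -0.27 over the longest. The same library had the highest summed level of 10 macrophage and monocyte markers, 312.6 CPM, against 91.1 and 58.7 CPM in replicates 1 and 2 and 23.5 to 101 CPM in controls, and none of the 10 markers was at 0 in all libraries. Its summed markers of αβ and double-positive thymocytes (11 genes) were also the highest of all libraries, at 2071 CPM against 1503 and 1241 CPM in replicates 1 and 2 and 1694 to 1711 CPM in controls, as were those of dendritic cells (155 CPM) and erythroid cells (52.9 CPM). These sums also mix directions. *Cd4* was at 28.8 to 32.9 CPM in controls and 67.9 to 90.1 CPM in *Rag1Cre-Nfatc1fl/fl* samples, and *Dntt* at 247 to 289 and 115 to 231 CPM. *Ccr7*, most of the dendritic sum in controls, was at 111 to 116 and 86.7 to 99.0 CPM. Among markers of other cells, some lists rested mainly on 1 or 2 genes each and were lower in all *Rag1Cre-Nfatc1fl/fl* samples. They were *Cd79b* for B cells (24.3 to 27.7 CPM in controls, 13.8 to 18.5 CPM in *Rag1Cre-Nfatc1fl/fl* samples), the mast cell protease *Cpa3* for neutrophils and mast cells (167 to 187 and 81.7 to 109 CPM), and *Pecam1* (145 to 165 and 77.6 to 123 CPM) with *Pdgfrb* for stroma and endothelium. The thymic epithelium list rested mainly on *Epcam* (18.3 to 19.9 CPM in controls, 7.92 to 9.04 CPM in *Rag1Cre-Nfatc1fl/fl* samples) and was lower in the same way. *Elane*, *Mcpt4*, *Fcer1a* and *Pdgfra* were at 0 throughout, so these sums do not stand for whole cell types. In bulk RNA, fewer cells of a type and less RNA per cell cannot be told apart.

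None of the 10 genes passed the call, which required a Benjamini-Hochberg adjusted p below 0.01 in the quasi-likelihood test of edgeR together with a log2 fold change beyond 0.5 in either direction. Of all tested genes, 9.98% passed it. At an unadjusted p under 0.05 there were 4 of the 10 genes in edgeR, beside 37.6% of all tested genes, and DESeq2 called 1 of the 10, *Nfkbie*, beside 15.3%. Each of these shares was near its background or below it. Without a minimum fold and at an adjusted p under 0.05, 2 of the 10 were reached, *Nfkbie* and *Tnfaip3*, both lower in *Rag1Cre-Nfatc1fl/fl* samples, beside 23.3% of all tested genes and 10.1% in the lower direction. The median absolute log2 fold change was 0.16 over the 10 genes and 0.28 over all tested genes. In 6 of the 10 genes the control and *Rag1Cre-Nfatc1fl/fl* samples did not overlap, 3 with higher and 3 with lower levels, beside 46.7% of all tested genes. The 2 groups overlapped for the other 4.

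**Figure D1:**
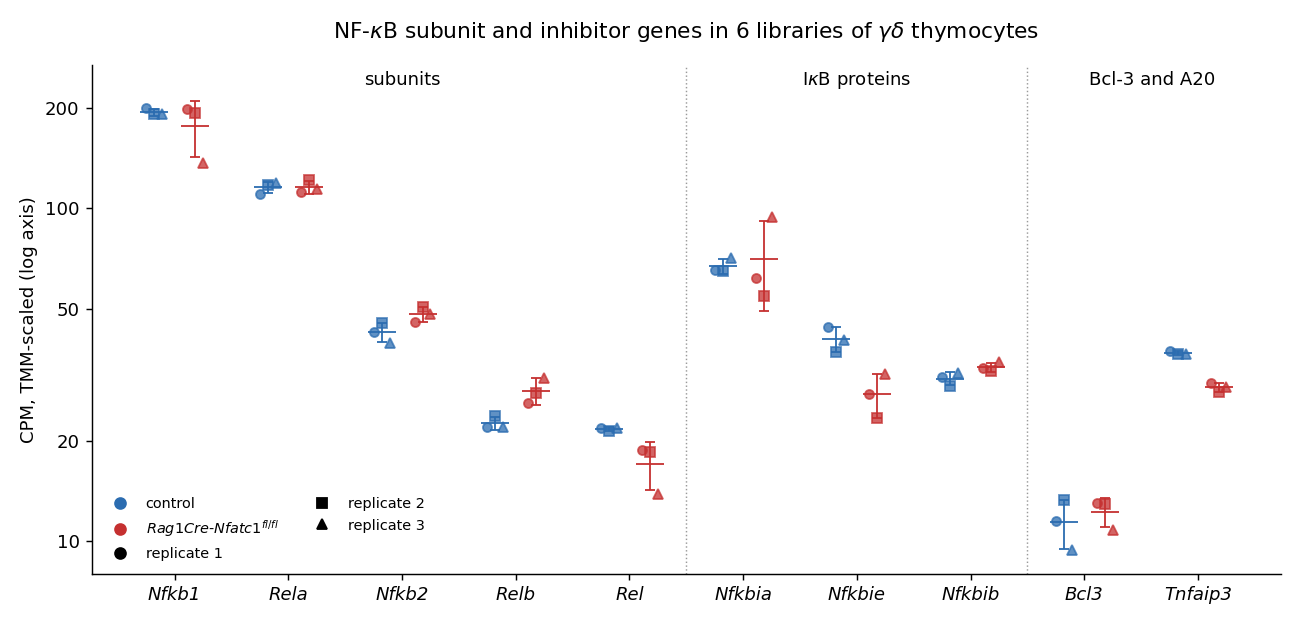
Level of each of the 10 genes in each of the 6 libraries, as TMM-scaled CPM on a log axis, with control samples in blue and *Rag1Cre-Nfatc1fl/fl* samples in red. Horizontal bars are group means and error bars are SDs (n = 3), and marker shapes give the replicate number. *Rel*, *Nfkbie* and *Tnfaip3* lay lower and *Nfkb2*, *Relb* and *Nfkbib* higher in all *Rag1Cre-Nfatc1fl/fl* samples, while replicate 3 of that group stood apart for *Nfkb1*, *Rel* and *Nfkbia*.

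Differences in level between genes were read per exon length, as TPM, the length-corrected share of all transcripts, without the TMM scaling. In controls *Rela* was the most abundant subunit transcript at 114 ± 7.45 TPM (SD, n = 3), followed by *Nfkb1* at 42.4 ± 0.569 TPM, *Nfkb2* at 32.0 ± 2.87 TPM, *Relb* at 15.2 ± 1.05 TPM and *Rel*, the transcript of c-Rel, at 7.71 ± 0.217 TPM. The 5 subunits did not overlap with one another in the controls. Among the inhibitors *Nfkbia*, at 110 ± 7.34 TPM, overlapped with *Rela*, and *Nfkbie*, at 43.0 ± 2.26 TPM, overlapped with *Nfkb1*. *Nfkbib* stood at 37.7 ± 1.35 TPM, above *Nfkb2*. *Tnfaip3* at 13.5 ± 0.319 TPM and *Bcl3* at 12.2 ± 2.29 TPM overlapped with each other and lay above *Rel*, and the highest control of *Bcl3* overlapped with *Relb*.

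The order of the means in *Rag1Cre-Nfatc1fl/fl* samples differed in the middle and near the bottom. *Nfkbie* stood at 26.4 ± 2.55 TPM, below *Nfkbib*, *Nfkb1* and *Nfkb2*, although its range overlapped with those of *Nfkb1* and *Nfkb2*. *Rela* at 102 ± 13.4 TPM and *Nfkbia* at 100.1 ± 17.5 TPM were again the most abundant of the 10 and overlapped with each other. *Bcl3* at 11.9 ± 2.36 TPM and *Tnfaip3* at 9.51 ± 1.25 TPM exchanged places and overlapped. *Rel* was again the lowest, at 5.55 ± 1.45 TPM.

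The canonical subunits *Nfkb1* and *Rela* showed no detectable genotype difference. *Nfkb1* (ENSMUSG00000028163), whose product p105 is the precursor of p50, lies on chr3:135584655-135691547 (GRCm38, minus strand) and was read at 199.8, 191.5 and 191.7 CPM in controls and 198.7, 193.9 and 137.3 CPM in *Rag1Cre-Nfatc1fl/fl* samples. Replicates 1 and 2 of the *Rag1Cre-Nfatc1fl/fl* group lay within the range of the controls and replicate 3 below it. For *Nfkb1* the log2 fold change was -0.14 (95% interval -0.46 to 0.19, adjusted p = 0.51), and without replicate 3 it was 0.03. *Rela* (ENSMUSG00000024927), the RelA or p65 subunit that carries a transactivation domain, lies on chr19:5637483-5648130 on the plus strand. *Rela* had 110.6, 117.4 and 119.2 CPM in controls and 111.8, 121.4 and 114.0 CPM in *Rag1Cre-Nfatc1fl/fl* samples. Its groups overlapped and its means were 116 ± 4.53 and 116 ± 5.05 CPM. The log2 fold change had a 95% interval of -0.19 to 0.19 (adjusted p = 1.0), which leaves room for a difference of up to 1.14-fold in either direction.

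*Rel* (ENSMUSG00000020275) encodes c-Rel, the subunit best known from activated lymphocytes, and lies on chr11:23736847-23770970 on the minus strand. It had 21.9, 21.5 and 21.9 CPM in controls and 18.9, 18.6 and 13.9 CPM in *Rag1Cre-Nfatc1fl/fl* samples. All *Rag1Cre-Nfatc1fl/fl* samples lay below all controls, and replicate 3 lay farthest below. The log2 fold change of *Rel* was -0.35 (95% interval -0.65 to -0.04, adjusted p = 0.0947), and leaving out 1 library at a time gave -0.42 to -0.21. The value closest to 0 was that without replicate 3, and the reads that span exon junctions gave -0.14 (95% interval -0.58 to 0.30).

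The subunits of the non-canonical route leaned the other way without passing the call. *Nfkb2* (ENSMUSG00000025225), which encodes p100, lies on chr19:46304737-46312090 on the plus strand. It had 42.6, 45.2 and 39.5 CPM in controls and 45.5, 50.4 and 48.3 CPM in *Rag1Cre-Nfatc1fl/fl* samples, so that the groups were barely separate. Its log2 fold change was 0.18 (95% interval -0.03 to 0.39, adjusted p = 0.183). *Relb* (ENSMUSG00000002983), whose product pairs with p52, lies on chr7:19606217-19629438 on the minus strand. *Relb* had 22.0, 23.8 and 22.1 CPM in controls and 26.0, 27.9 and 31.0 CPM in *Rag1Cre-Nfatc1fl/fl* samples. The lowest *Rag1Cre-Nfatc1fl/fl* sample lay above the highest control. For *Relb* the log2 fold change was 0.32 (95% interval 0.09 to 0.55, adjusted p = 0.0525), and it stayed between 0.22 and 0.38 over 19 alternative settings. *Relb* made up 7.19% ± 0.215 of the summed subunit TPM in controls and 8.92% ± 1.16 in *Rag1Cre-Nfatc1fl/fl* samples, and *Rel* 3.66% ± 0.0984 and 2.84% ± 0.367. *Rela* held 53.9% ± 1.45 and 53.2% ± 1.64 of the same sum.

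**Figure D2:**
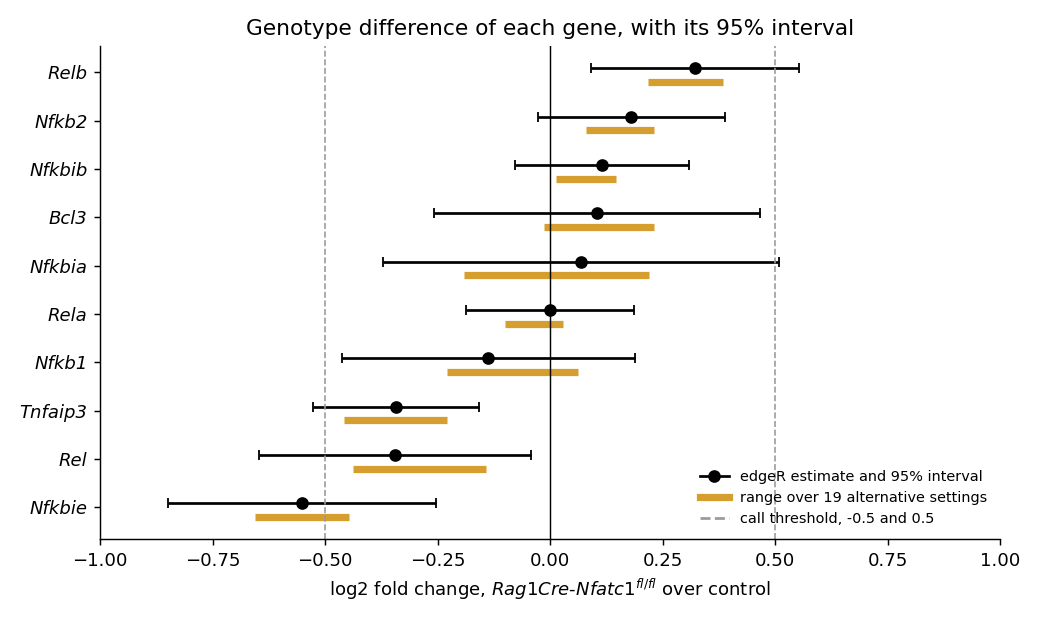
Log2 fold change of each gene, *Rag1Cre-Nfatc1fl/fl* over control, as the edgeR estimate with its 95% interval (black) and the range over 19 alternative settings (yellow). Dashed lines mark the log2 fold change of 0.5 used in the call. The *Nfkbie* estimate of -0.55 lies beyond the line and its interval crosses it, and the *Rela* estimate lies at 0.

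The promoter windows of the RefSeq annotation (GRCm38.p6, 250 bases before to 50 after each start) were searched on both strands for the κB consensus, the binding motif of NF-κB dimers, and for GGAAA, the core of the NFAT motif. Windows were listed for 8 of the 10 genes, *Nfkb1* and *Relb* being the other two, and 6 of the 8 held a κB match: *Bcl3*, *Nfkb2*, *Rel*, *Nfkbia*, *Nfkbie* and *Tnfaip3*. Of all 32851 windows, 4.505% held one. That share is per window, whereas the 8 genes had 11 windows, so some genes had more than 1 chance of a match. The NFAT core was in 61.34% of all windows, and it overlapped with a κB match in *Nfkb2*, *Rel*, *Nfkbia* and *Tnfaip3*. Some κB matches, such as GGAAATTCCC, contain GGAAA, so part of this overlap follows from the letters of the motifs. A match is a stretch of letters and no binding was measured. The 250 bases before the start are shown for *Nfkbie*, *Tnfaip3* and *Rel*, whose levels were lower in all *Rag1Cre-Nfatc1fl/fl* samples, and for *Nfkbia*, whose intron reads differed, each 5′ to 3′ on the strand of the gene with κB matches in capitals.
*Nfkbie*, chr17:45555450-45555699, plus strand: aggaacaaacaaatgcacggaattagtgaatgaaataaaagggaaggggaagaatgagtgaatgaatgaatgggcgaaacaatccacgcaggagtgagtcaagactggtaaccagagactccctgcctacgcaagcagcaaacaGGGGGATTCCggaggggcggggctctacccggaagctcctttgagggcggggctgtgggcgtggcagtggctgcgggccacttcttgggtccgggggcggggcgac
*Tnfaip3*, chr10:19015411-19015660, minus strand: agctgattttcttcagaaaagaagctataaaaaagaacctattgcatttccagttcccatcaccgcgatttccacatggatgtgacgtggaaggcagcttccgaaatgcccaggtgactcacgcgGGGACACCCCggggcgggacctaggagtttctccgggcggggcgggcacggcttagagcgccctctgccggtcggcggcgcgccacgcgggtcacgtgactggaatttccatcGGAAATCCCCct
*Rel*, chr11:23770970-23771219, minus strand: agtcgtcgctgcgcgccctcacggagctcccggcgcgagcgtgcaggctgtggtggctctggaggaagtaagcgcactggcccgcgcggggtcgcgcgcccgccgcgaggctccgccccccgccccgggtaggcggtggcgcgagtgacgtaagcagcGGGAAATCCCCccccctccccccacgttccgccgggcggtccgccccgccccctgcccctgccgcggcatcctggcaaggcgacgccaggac
*Nfkbia*, chr12:55492648-55492897, minus strand: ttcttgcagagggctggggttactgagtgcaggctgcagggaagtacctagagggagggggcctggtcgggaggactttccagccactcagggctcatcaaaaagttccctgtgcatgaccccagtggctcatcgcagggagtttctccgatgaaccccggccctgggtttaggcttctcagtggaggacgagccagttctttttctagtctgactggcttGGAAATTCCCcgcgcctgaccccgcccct
*Nfkbie* had 1 match, at positions -106 to -97 from the start, and no NFAT core in its window. *Tnfaip3* had matches at -125 to -116 and at -12 to -3, *Rel* a single run at -92 to -82 in which overlapping matches were found on both strands, and *Nfkbia* 1 match at -29 to -20. The windows of *Rela* and *Nfkbib* held no κB match. All but the first few of the *Tnfaip3* bases shown lie inside the span that the gene tables give for the gene, which begins farther upstream than the RefSeq start.

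*Nfkbie* encodes IκBε, an inhibitor that holds mainly RelA and c-Rel dimers and is induced late after stimulation. It (ENSMUSG00000023947) lies on chr17:45555716-45563169 on the plus strand and was the member with the largest difference. *Nfkbie* had 44.0, 37.0 and 40.4 CPM in controls and 27.8, 23.4 and 31.7 CPM in *Rag1Cre-Nfatc1fl/fl* samples. Every *Rag1Cre-Nfatc1fl/fl* sample lay below every control. The mean was 40.5 ± 3.50 CPM in controls and 27.6 ± 4.16 CPM in *Rag1Cre-Nfatc1fl/fl* samples, 0.682 times the control level. The log2 fold change was -0.55 (95% interval -0.85 to -0.25) with an adjusted p of 0.0191 in edgeR, above the threshold of 0.01. The markers *Cd79b*, *Cpa3* and *Pecam1* given above were also lower in all *Rag1Cre-Nfatc1fl/fl* samples, whereas *Cd22* and *Col1a1* were higher in all of them. The part of other cells in the *Nfkbie* level was not tested. *Nfkbie* passed the call in 5 of 19 alternative settings, among them DESeq2 (adjusted p = 0.00243) and the fit without *Rag1Cre-Nfatc1fl/fl* replicate 3 (log2 fold change -0.65, adjusted p = 0.00123). Without control replicate 1, control replicate 3 or *Rag1Cre-Nfatc1fl/fl* replicate 2 its adjusted p was 0.0797, 0.0669 and 0.0547, past 0.05. Reads over exon junctions gave -0.47 (adjusted p = 0.0269) and intron reads -0.66 (95% interval -1.33 to 0.02, adjusted p = 0.264).

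*Nfkbia* (ENSMUSG00000021025), the gene of IκBα and the classical fast feedback inhibitor, lies on chr12:55489410-55492647 on the minus strand. It had 65.1, 65.0 and 70.9 CPM in controls and 61.8, 54.7 and 94.4 CPM in *Rag1Cre-Nfatc1fl/fl* samples. Replicates 1 and 2 of the *Rag1Cre-Nfatc1fl/fl* group lay below all controls and replicate 3 above them. The log2 fold change of *Nfkbia* was 0.07 (95% interval -0.37 to 0.51, adjusted p = 0.821), and without replicate 3 it was -0.19 (adjusted p = 0.07). *Nfkbib* (ENSMUSG00000030595), the gene of IκBβ, lies on chr7:28758251-28767512 on the minus strand. *Nfkbib* had 31.1, 29.3 and 32.0 CPM in controls and 33.1, 32.5 and 34.5 CPM in *Rag1Cre-Nfatc1fl/fl* samples, which did not overlap. Its log2 fold change was 0.11 (95% interval -0.08 to 0.31, adjusted p = 0.353). The annotation puts *Sirt2* on the opposite strand over 778 bases of *Nfkbib*, with 1376 to 1842 reads, and the library kit did not mark strand, so the *Nfkbib* values are uncertain.

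The balance of IκB to subunit transcripts overlapped between the genotypes. The summed TPM of the 3 IκB genes was 0.907 ± 0.0513 times that of the 5 subunits in controls and 0.869 ± 0.228 times in *Rag1Cre-Nfatc1fl/fl* samples. The *Rag1Cre-Nfatc1fl/fl* samples stood at 0.808, 0.678 and 1.12, replicate 3 being the highest of all 6. Within the IκB genes, *Nfkbie* made up 24.2%, 21.6% and 21.8% of the summed TPM in controls and 17.4%, 16.4% and 14.8% in *Rag1Cre-Nfatc1fl/fl* samples, without overlap. *Nfkbia* made up 57.7% ± 1.64 and 61.0% ± 4.82, and *Nfkbib* 19.8% ± 0.206 and 22.8% ± 3.75.

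*Tnfaip3* (ENSMUSG00000019850) encodes A20, a ubiquitin-editing enzyme that shuts off signalling upstream of the IκB kinase. It lies on chr10:19000910-19015657 on the minus strand. *Tnfaip3* had 37.3, 36.6 and 36.5 CPM in controls and 30.0, 28.0 and 29.0 CPM in *Rag1Cre-Nfatc1fl/fl* samples. The groups were separate, and the SDs of 0.436 CPM in controls and 0.981 CPM in *Rag1Cre-Nfatc1fl/fl* samples were small beside the difference. Its log2 fold change was -0.34 (95% interval -0.53 to -0.16) with an adjusted p of 0.019 in edgeR, so that it was reached without a fold minimum but stayed inside the fold of the call. Leaving out 1 library at a time gave -0.36 to -0.32, but the adjusted p rose past 0.05, to between 0.0716 and 0.0853, without any 1 control or without *Rag1Cre-Nfatc1fl/fl* replicate 2. *Bcl3* (ENSMUSG00000053175), whose product acts in the nucleus with p50 or p52 dimers, lies on chr7:19808462-19822770 on the minus strand. *Bcl3* had 11.5, 13.3 and 9.4 CPM in controls and 13.0, 12.9 and 10.8 CPM in *Rag1Cre-Nfatc1fl/fl* samples. The groups overlapped, and the log2 fold change was 0.10 (95% interval -0.26 to 0.47, adjusted p = 0.66).

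For *Nfkbia*, *Nfkb1*, *Rel* and *Bcl3*, *Rag1Cre-Nfatc1fl/fl* replicate 3 differed from replicates 1 and 2 of its own group by more than the genotypes did. Its log2 ratio to their mean was 0.70 for *Nfkbia* and -0.52 for *Nfkb1*, the genes with the shortest and the longest exon length of the set (1610 and 12061 bases). It was -0.43 for *Rel*, 0.31 for *Nfkbie*, -0.26 for *Bcl3* and 0.21 for *Relb*. *Tnfaip3*, *Nfkb2* and *Rela* were close to 0 on this scale. In an alternative fit, a trend on exon length was fitted in each library to the level of each gene relative to its mean. With that trend removed, the log2 fold change of *Nfkb1* moved to 0.06, of *Nfkbia* to -0.09 and of *Nfkbie* to -0.63. There *Nfkbie* passed the call (adjusted p = 0.00364). The other long genes moved towards 0, *Tnfaip3* to -0.23 with an adjusted p of 0.0804, no longer under 0.05, and *Rel* to -0.24. The summed macrophage markers were also highest in this library, though *Lyz2* among them was highest in a control. The part of exon length or of macrophages in the values of *Nfkbia* and *Nfkb1* was not tested.

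**Figure D3:**
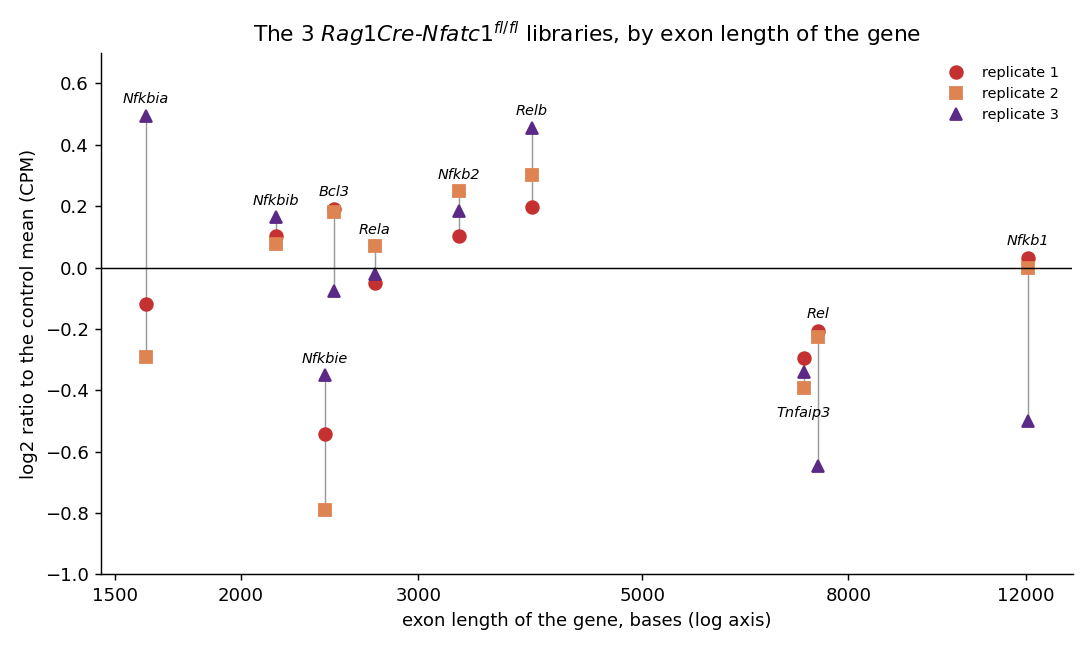
Log2 ratio of each *Rag1Cre-Nfatc1fl/fl* library to the control mean for each of the 10 genes, against the exon length of the gene on a log axis, with 1 marker shape and colour for each replicate and a grey line joining the 3. Replicate 3 lies highest for *Nfkbia* (1610 bases) and lowest for *Nfkb1* (12061 bases) and *Rel*.

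Reads that fell in introns come mainly from transcripts that are not yet spliced, and they differed between the genotypes for *Nfkbia*. This was examined after the gene counts had been seen. *Nfkbia* had 20, 16 and 12 intron reads in controls and 28, 34 and 57 in *Rag1Cre-Nfatc1fl/fl* samples. The groups did not overlap, as in 13.3% of the 6158 genes with enough intron reads in that direction, and replicate 3 was highest. In an edgeR fit on intron reads alone the log2 fold change of *Nfkbia* was 1.54 (95% interval 0.82 to 2.26), a 2.91-fold higher level, with an adjusted p of 0.00773. Of all genes in that fit 3.78% were called, with 2.76% in the higher direction. The call was lost without any 1 control (adjusted p = 0.0277, 0.0396 and 0.048), without *Rag1Cre-Nfatc1fl/fl* replicate 2 (0.0101) and without replicate 3 (0.0609, log2 fold change 1.08), and it was kept without replicate 1.

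As a share of its total gene reads, *Nfkbia* intron reads were 1.32%, 1.08% and 0.754% in controls and 2.08%, 2.83% and 3.19% in *Rag1Cre-Nfatc1fl/fl* samples. A two-sided exact permutation test on the shares gave p = 0.1, the smallest that 3 against 3 samples allow, and 0.5 after adjustment over the 10 genes' shares. In 1 edgeR fit over exon and intron reads of the same libraries, the intron difference of *Nfkbia* exceeded its exon difference by a log2 of 1.43 (95% interval 0.75 to 2.11) with an adjusted p of 0.0356, which did not pass 0.01. Calls in that fit made up 0.139% of its 5737 genes in the higher direction and 0.227% in the lower. Over all genes the intron reads were 2.33% to 2.53% of gene reads in controls and 1.94% to 2.15% in *Rag1Cre-Nfatc1fl/fl* samples, the direction opposite to *Nfkbia*. *Tnfaip3* had 6, 2 and 2 intron reads in controls and 5, 15 and 12 in *Rag1Cre-Nfatc1fl/fl* samples, too few for the fit, and its shares of 0.392% ± 0.260 and 1.80% ± 0.901 gave the same exact p of 0.1. The other 8 genes had shares that overlapped between the groups, with the highest in *Nfkb2*, at 7.24% ± 0.927 in controls and 6.59% ± 1.76 in *Rag1Cre-Nfatc1fl/fl* samples.

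**Figure D4:**
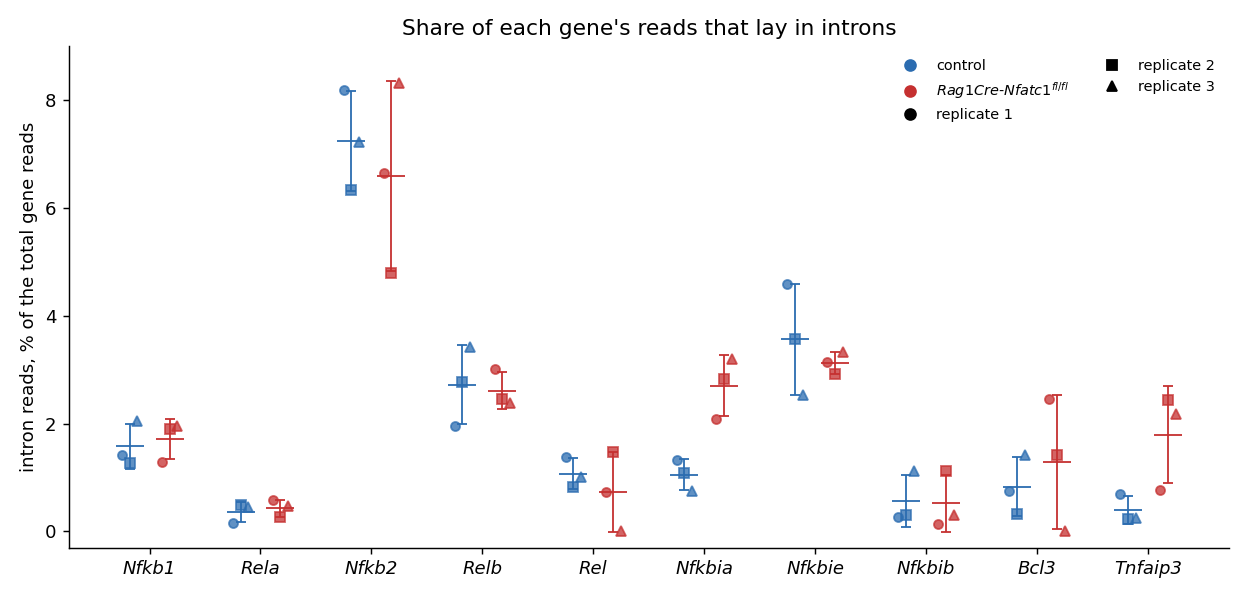
Intron reads as a percentage of the total gene reads of each gene in each library, control in blue and *Rag1Cre-Nfatc1fl/fl* in red, with group means and SDs (n = 3) and the replicate number given by the marker shape. The *Nfkbia* and *Tnfaip3* shares were higher in all *Rag1Cre-Nfatc1fl/fl* samples than in all controls.

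The genes around the 10 were read from 9 lists of pathway members, 149 genes in all, of which 136 were tested. Over the lists together 24 genes were called higher and 5 lower and 107 were not called, beside 6.47% and 3.51% of all tested genes. Their median log2 fold change was 0.10 against -0.01 over all tested genes. The lists were chosen with earlier results of these data known, so these counts do not test the pathway against that background. Leaving out 1 library at a time gave 10 to 30 genes called higher and 1 to 8 called lower. There were 10, 11 and 10 higher without control replicates 1, 2 and 3 and 15 higher without *Rag1Cre-Nfatc1fl/fl* replicate 2. Over all tested genes the share called higher fell in the same 4 fits, to 2.89%, 3.11%, 2.82% and 3.45%.

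None of the 5 other IκB proteins and regulators, none of the 11 IκB kinase genes and their partners and none of the 13 nuclear cofactors passed the call in edgeR, counts that with lists this short do not stand apart from the 9.98% of all tested genes. At an unadjusted p under 0.05 in edgeR they had 1, 4 and 4 genes, beside 37.6% of all tested genes. DESeq2 called 2 of the 11 kinase genes, beside 15.3% of all tested genes, and both are named after their values were seen. *Ikbke*, an IKK-related kinase, was higher (edgeR log2 fold change 0.52, adjusted p = 0.029) and *Tab1*, a TAK1 adaptor, lower (-0.55). The most abundant genes of these lists were *Nkiras2* (log2 fold change 0.17, 95% interval -0.06 to 0.40) and *Nfkbil1* (-0.08, -0.33 to 0.17) among the IκB regulators. Among the kinase genes they were *Tab2*, an adaptor of the kinase TAK1 (-0.37, -0.70 to -0.04, adjusted p = 0.0987), and *Map3k7*, which encodes TAK1 (-0.25, -0.52 to 0.01). Among the cofactors they were *Hdac1*, a histone deacetylase (0.02, -0.15 to 0.19), and *Copb2* (0.10, -0.07 to 0.28), whose product is known as a vesicle coat protein rather than a nuclear factor. In the antigen receptor route 1 of 11 genes was called, the costimulatory receptor *Cd28*, at 207 ± 16.2 CPM in controls and 406 ± 33.6 CPM in *Rag1Cre-Nfatc1fl/fl* samples (log2 fold change 0.97, adjusted p = 5.99e-04), and it was called in all 19 alternative settings. *Prkcb*, a protein kinase C of lymphocytes, named after its values were seen, was at 270.2 ± 7.99 CPM in controls and 141 ± 39.1 CPM in *Rag1Cre-Nfatc1fl/fl* samples, lower in all of them (log2 fold change -0.94, adjusted p = 0.0106), and was called lower in 11 of 19 alternatives. The most abundant others on that route were *Csnk1a1*, a casein kinase (-0.18, -0.36 to -0.01, adjusted p = 0.12), and *Pik3cd*, a PI3 kinase subunit (-0.25, -0.60 to 0.10).

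Among 20 TRAF, cIAP, RIPK and adaptor genes 4 were called higher and 1 lower. *Traf5*, an adaptor of TNF-family receptors, rose from 11.5 ± 0.878 to 24.5 ± 4.29 CPM (log2 fold change 1.08). *Irak4* and *Myd88*, the kinase and the adaptor of Toll-like and interleukin-1 receptors, rose by 0.96 and 0.61 on the log2 scale, and *Traf4* fell by 0.64. The list had 0, 1 and 0 higher calls without control replicates 1, 2 and 3. Higher calls over all tested genes also fell in these fits, as given above. Among 13 ubiquitin enzymes and A20 partners 2 were called, both higher: *Tnip2*, which encodes an A20-binding protein, from 6.47 ± 0.550 to 14.0 ± 0.906 CPM (log2 fold change 1.11), and *Rnf11*, a subunit of the A20 complex, with a log2 fold change of 0.75. *Tnip2* was called in all 19 alternative settings and *Rnf11* in 15. A20 itself, *Tnfaip3*, thus lay in the direction opposite to *Tnip2* and *Rnf11*, and the difference between these genes was not tested. Other A20 partners on the list, named after their values were seen, were not called. *Tnip1* (-0.02), *Tnip3* (-0.41) and *Tax1bp1* (-0.31) had negative log2 fold changes like *Tnfaip3*, and *Itch* (0.10) a positive one. The median of the list was 0.04.

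Receptors, target genes and ligands at the ends of the pathway held most of the calls, and with 24, 42 and 11 tested genes also much of the 136. The lists overlap, and a gene on more than 1 list is counted in each. Among called genes, *Cd40* and *Tnfrsf4* are both receptors and target genes, and *Traf1* is both an adaptor and a target gene. Of 24 receptors 5 were called higher and 2 lower. *Tlr7*, a sensor of single-stranded RNA, rose from 6.64 ± 1.15 to 18.9 ± 2.92 CPM, *Il18rap*, a subunit of the interleukin-18 receptor, from 12.0 ± 1.61 to 25.6 ± 3.57 CPM, and *Cd40* from 0.189 ± 0.0887 to 1.59 ± 0.416 CPM, the last on 2 to 6 reads in each control. *Cd27*, a TNF-family costimulatory receptor of γδ thymocytes, fell from 351 ± 6.28 to 237 ± 7.27 CPM (log2 fold change -0.56). Without control replicates 1, 2 and 3, where higher calls also fell over all tested genes, the list had 1, 2 and 1.

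Of 42 known NF-κB target genes tested 11 were called higher and 1 lower. The antiapoptotic genes *Bcl2a1b* and *Bcl2a1d* rose by 3.72 and 3.43 on the log2 scale. They are near-identical copies that can share reads, so their split is uncertain. *Irf4*, a transcription factor of activated lymphocytes, rose from 10.8 ± 0.847 to 27.6 ± 4.01 CPM, and *Myc* from 50.8 ± 3.41 to 103 ± 10.4 CPM, and all 4 were called in all 19 alternative settings. Of 11 ligands tested 4 were called higher and 1 lower. *Cd40lg*, the ligand of CD40, rose from 2.59 ± 0.730 to 32.5 ± 7.79 CPM (log2 fold change 3.65), *Tnfsf9* by 2.12 and *Tnfsf14* by 0.81 on the log2 scale, and *Tnfsf8*, the CD30 ligand, fell from 10.6 ± 0.722 to 2.91 ± 0.771 CPM (log2 fold change -1.87). Without 1 control at a time, higher calls fell over all tested genes. In those fits the target list had 4, 4 and 5 higher calls and the ligand list 3, 2 and 2. Many of these genes are also regulated by other factors, and the summed macrophage markers given above were higher in *Rag1Cre-Nfatc1fl/fl* replicate 3 than in the other libraries. By flow cytometry, the study reported a larger share of γδ thymocytes with PLZF or CD4 in *Rag1Cre-Nfatc1fl/fl* mice. In bulk RNA, a different mix of γδ cells and a change within cells cannot be told apart. Whether the macrophage share or the mix of γδ cells contributed to these calls was not tested.

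**Figure D5:**
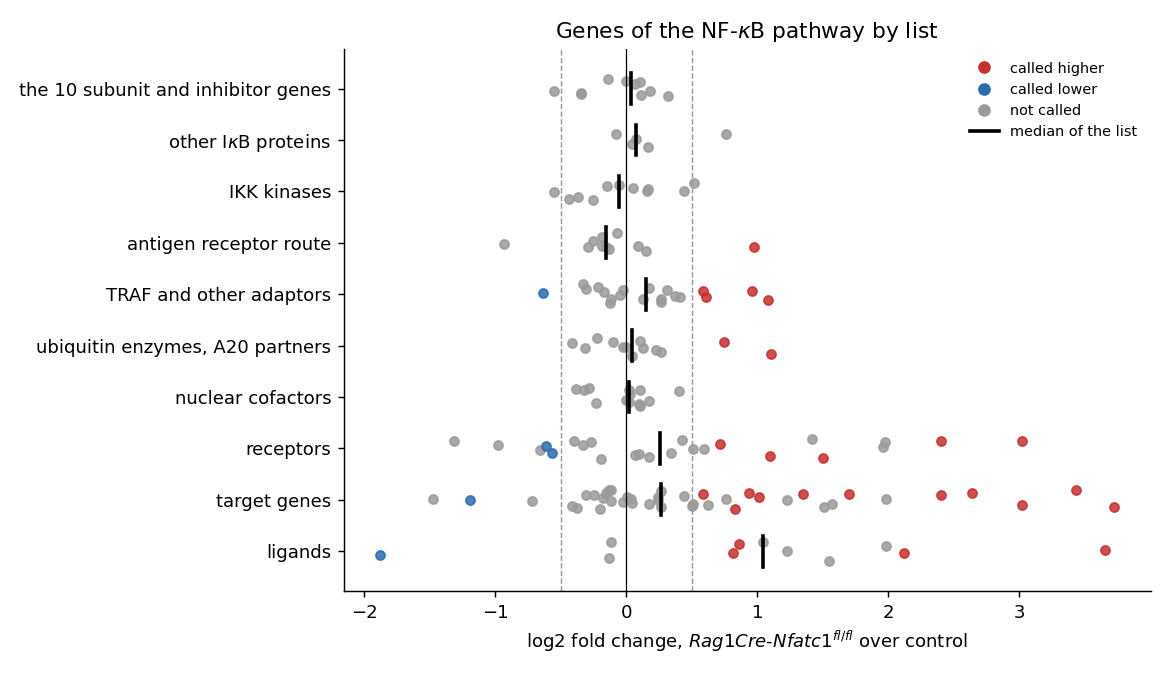
Log2 fold change, *Rag1Cre-Nfatc1fl/fl* over control, of each tested gene in the set of 10 and in the 9 pathway lists, with genes called higher in red, called lower in blue and not called in grey, and the median of each list as a black bar. Vertical jitter only separates the points, and dashed lines mark 0.5 in either direction. The 10 genes lie between -0.55 and 0.32, while the target genes reach 3.72 and the ligands 3.65.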

How the data were processed

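Total RNA of γδ thymocytes was prepared into poly(A) libraries with an unstranded kit, and the study's methods state trimming with cutadapt, alignment to GRCm38 with STAR, counting with featureCounts and a DESeq2 test. The tables carry separate junction and intron columns, and whether featureCounts wrote them is not stated. The 6 deposited tables, 1 per library, hold per gene the authors' raw counts of reads (total and unique, over the gene, its exons, junctions and introns), with no normalization. Total gene reads were tested in edgeR 4.0.16 (R 4.3.3) after filterByExpr, with TMM scaling, a quasi-likelihood test of genotype over 3 against 3 libraries and Benjamini-Hochberg adjustment across the 13185 genes that passed. Calls needed an adjusted p below 0.01 together with a log2 fold change beyond 0.5 in either direction. TPM values were recomputed from total exon reads and exon lengths and differed from the deposited TPM column by at most 5e-07. DESeq2 1.42.0, limma 3.58.1 (voom), other scalings and read classes, and fits without each library were alternatives. The fits were tested on simulated data. Libraries held 20734771 to 22638531 gene reads, and values on few reads, such as intron reads, carry counting error beside the spread between samples. Intervals cover the spread between samples.

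The 10 genes, the pathway lists and the marker lists were chosen with earlier results of these data known. Genes were named by rule: the 10 genes, *Nfatc1*, genes overlapping one of the 10, up to 4 called genes of each list by adjusted p, and in lists with fewer than 2 called the 2 most abundant. The intron comparison was added after the gene counts had been seen. Promoter sequences came from RefSeq (GRCm38.p6) and figures from matplotlib 3.10.9. Protein sequences were not used here.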

Additional observations from a re-analysis of the deposited data

How the results depend on the processing

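The direction of *Nfkb2*, *Rel*, *Relb*, *Nfkbib*, *Nfkbie* and *Tnfaip3* held in all 19 alternatives, and only *Nfkbie* crossed the call. It passed with library size scaling (-0.66), without a filter (-0.55), in DESeq2 (-0.55) and with the length trend removed (-0.63), which took the genes called lower from 0 to 1, and 2 of the 10 passed at an adjusted p under 0.05 without a fold minimum. Leaving out 1 library at a time gave -0.65 to -0.45 for *Nfkbie*, -0.23 to 0.025 for *Nfkb1*, -0.037 to 0.028 for *Rela*, -0.19 to 0.22 for *Nfkbia* and -0.013 to 0.23 for *Bcl3*, and 0 to 1 of the 10 genes called lower. *Nfkb1* turned to 0.061 with the length trend removed. *Nfkbia* turned to -0.045 with library size scaling and to -0.092 with the length trend removed. *Rela*, at -2.2e-05, changed sign with RLE factors (0.0061), no filter (0.00015), DESeq2 (0.0061), unique gene reads (0.0030), junction reads (0.0068) and without ribosomal protein and mitochondrial genes (0.0044). The pathway lists had 10 to 30 genes higher and 1 to 8 lower when 1 library was left out, 8 lower in DESeq2 and 15 lower at an adjusted p under 0.05. All tested genes had 380 to 1131 higher and 100 to 665 lower when 1 library was left out, 754 lower in DESeq2, 264 lower with junction reads, and 1739 higher and 1334 lower at an adjusted p under 0.05. The *Nfkbia* intron difference was 1.44 in limma-voom (adjusted p = 0.0216) and 1.08 to 1.75 without 1 library. The cause of these moves was not tested.

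Library size scaling moved the median of all genes to -0.11 and the share of higher calls from 64.8% to 54.8%. Same-numbered samples of the 2 groups correlated at 0.03, 0.18 and 0.01, and differently numbered samples at -0.15 to 0.09. The numbers were not taken to pair the samples. The replicate block gave -0.56 for *Nfkbie* (adjusted p = 0.0132), 1.49 for the *Nfkbia* intron difference, 778 higher and 393 lower over all genes, and changed no call among the 10 genes. With 3 samples a group, differences under the intervals given could not be resolved.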
